A study of Mus musculus with 24 samples.

Results

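Near-projecting neurons of mouse primary motor cortex were selected here by the transcription factor gene Tshz2. A cell was taken when it held at least 1 UMI (a molecule counted once) of Slc17a7, none of Gad1 or Gad2, at least 2 UMIs of Tshz2 and none of Foxp2, Syt6, Cux2 or Otof, with at least 1000 UMIs, at least 500 genes and at most 20% mitochondrial UMIs. In all, 818 cells met the rule, out of 18395 motor cortex cells with Slc17a7 and without Gad1 or Gad2 (4.45%, Wilson 95% interval 4.16 to 4.75), 50361 motor cortex cells and 103715 cells of 23 libraries of motor cortex and dorsal striatum. The series has a further control library of dorsal striatum that is not analysed here. The other 17577 Slc17a7 cells are called the other glutamatergic neurons below. In the dorsal striatum libraries analysed, 240 of 53354 cells held Slc17a7 without Gad1 or Gad2, and 1 of these met the same rule.

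Near-projecting neurons are a class of glutamatergic neurons of deep cortical layers, found mainly in layer 5, whose axons stay within or close to their own area, in contrast to the extratelencephalic neurons of layer 5, which project to brainstem and spinal cord, and the corticothalamic neurons of layer 6. They are known by Tshz2, a teashirt-family zinc finger gene, and by a marker set that includes Lypd1, Vwc2l, Trhr and Slc17a8. Slc17a7 encodes the vesicular glutamate transporter VGLUT1, and Gad1 and Gad2 encode the enzymes that make GABA. Foxp2 and Syt6 mark corticothalamic neurons, and Cux2 and Otof mark upper-layer neurons.

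The mice were Fos-CreER::Ai9, in which Cre recombinase driven from the Fos gene switches on the Ai9 tdTomato reporter in cells active around a dose of 4-hydroxytamoxifen (4-OHT). Early mice were trained for 2 days and late mice for 8 days to reach with a forelimb, control mice were not trained, and all 3 groups, controls included, received 4-OHT. Motor cortex was collected 3 days after labelling and each hemisphere was pooled from 2 mice, giving 12 libraries in 6 pools: control 1 and 2, early 1 and 2, and late 1 and 2. No ages are given in the labels used here. A pool of 2 mice is the replicate throughout, cells of a pool are not, and no more than 2 pools stand for a stage.

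The motor cortex libraries held 541 to 8477 barcodes and 5260446 to 30470621 UMIs. The smallest, the left hemisphere of control 1, gave 4 of the 818 cells, and the other 11 libraries gave 46 to 114 each. Libraries shared up to 96 barcodes, and the rate of sharing split the pools into 2 classes. The labels name kit v2 or v3 without saying which library used which, and the classes, which may also stand for the batch, were fitted as a term called barcode class here. Control 1 and late 1 carried one batch label and formed the first class, the other 4 pools formed the second, and no early pool belonged to the first. The near-projecting neurons had a median of 6328 UMIs and 3106 genes with 1.77% mitochondrial UMIs, against 7321, 3383 and 2.14% in the other glutamatergic neurons. Scrublet scores marked 5.13% of them and 5.12% of the others as presumed doublets, which were kept. Over 0.1% of UMIs fell in 34 glial, microglial and vascular markers in 75 of the 818 cells (9.17%, 6.32 to 15.9% by pool and highest in late 1), against 10.2% of the others.

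Tshz2 (ENSMUSG00000047907, protein-coding, GRCm38 chromosome 2, 169633013 to 170071816, plus strand), the gene of the rule, was present at 2 to 47 UMIs per selected cell with a median of 10, and 406 of 818 cells (49.6%) held more than 10. There were 76 cells just inside the threshold, with 2 UMIs, and 177 just outside it, with 1 UMI and no exclusion gene. Etv1, a transcription factor gene of layer 5, was detected in 53.9% of the cells at 2 UMIs and 32.8% of those at 1. Lypd1, which encodes a relative of the nicotinic receptor modulator Lynx1, was detected in 42.1% and 26.6%. Both genes marked few of the 7787 cells without Tshz2 (14.6% and 10.8%) and most of the 127 cells with over 20 UMIs (97.6% and 89.0%). Median depth was 6112 UMIs per cell at 0 Tshz2 UMIs, 4904 at 1, 4443.5 at 2, 4028.5 at 4 to 5 and 11705 over 20, and its part in these shares was not tested. Among 376 cells that had at least 2 Tshz2 UMIs but fell out for an exclusion gene, 247 by a single UMI, Etv1 was detected in 86.7% and Lypd1 in 66.2%. These cells lie among the other glutamatergic neurons in every comparison below.

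**Figure D1:**
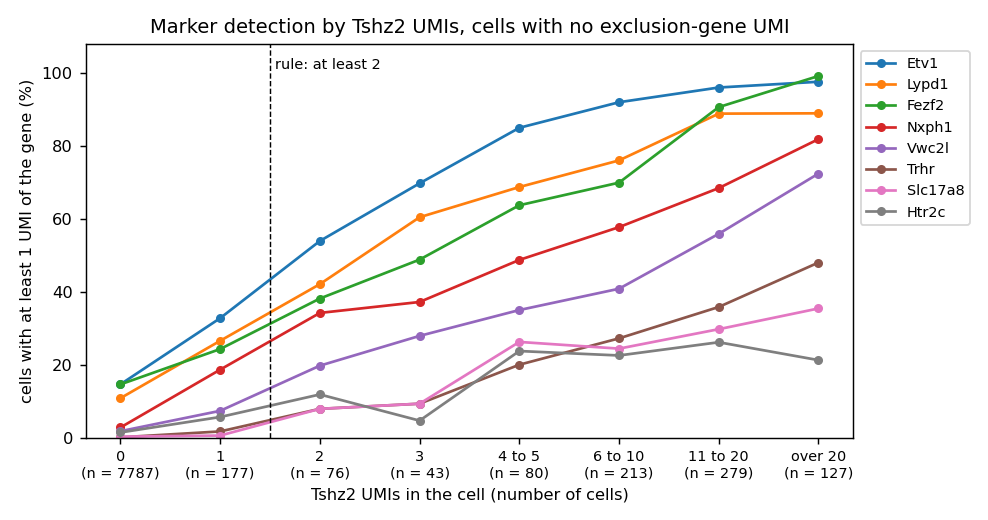
Share of cells with at least 1 UMI of each marker (vertical axis, percent) by the number of Tshz2 UMIs in the cell (horizontal axis, with the number of cells), among Slc17a7 cells without an exclusion gene. Etv1 goes from 14.6% at 0 UMIs to 53.9% at 2 and 97.6% over 20.

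To see where the cells fell without the genes of the rule, all 18395 cells were clustered on variable genes with the 8 rule genes removed. One cluster of 993 cells took 694 of the 818 (84.8%, 80.8 to 89.1% by pool). It was led by Trhr, Dkk2, Slc17a8, Sla2, Kcnip1, Nxph1, Grik1, Vwc2l, Mirt1 and Unc13c, 5 of which are near-projecting markers. Of the other 299 cells in it, 279 had been left out for an exclusion gene and 20 held fewer than 2 Tshz2 UMIs. Placement followed the level of Tshz2: 36.8% of the cells at 2 UMIs lay in this cluster, 60.5% at 3 and 91.6% above 3. Outside it, 22 cells lay in a cluster led by the layer 6b genes Nxph4, Moxd1, Cplx3 and Ctgf, 18 in one of 86 cells led by Sostdc1, Nts and Kit, 17 in one led by the endothelial gene Cldn5, 15 in one led by microglial genes, 12 in one led by oligodendrocyte precursor genes, 7 in one led by mural genes and 3 in one led by hemoglobin genes.

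The 10 near-projecting markers that could be tested, none of them used by the rule, were higher in the selected cells than in the other glutamatergic neurons in every pool. UMIs were summed per pool and compared with edgeR's quasi-likelihood test with the pool as a block, and levels are given as UMIs per 1000000 UMIs of the summed cells (CPM). Since the cells were taken by Tshz2, genes that accompany Tshz2 had to differ, and their calls are no independent support for the class. A small p reflects the size of the difference and the counts of the gene as well as the spread over pools. Of 16844 genes, 6881 (40.9%) passed an adjusted p of 0.05 by the Benjamini-Hochberg method, 2796 higher (16.6%) and 4085 lower (24.3%), with a median log2 fold change of -0.05. The excess of lower calls depended on the scaling: with RLE factors in place of TMM 3344 were higher (19.9%) and 3539 lower (21.0%), with a median of 0.01, and DESeq2 called 2856 higher and 2853 lower. Of 12 near-projecting markers, 10 could be tested and all 10 were called higher, with a median log2 fold change of 4.39, the other 2 being Tshz2 and Stac. Stac had 0 UMIs in all 818 cells, which allows a share of cells with a UMI of up to 0.367% (taking 3 counts as the limit, not a Wilson bound), and was found in 0.0171% of the others.

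Lypd1 (ENSMUSG00000026344, chromosome 1, 125867622 to 125913101, minus strand) ranged over the 6 pools from 987 to 1260.5 CPM with a median of 1062, against 45.8 to 70.3 with a median of 55.6 in the other glutamatergic neurons. The groups did not overlap and the log2 fold change was 4.20 (SE 0.0590, edgeR adjusted p 5.74e-68). Among the markers outside the rule it had the highest CPM, and it was detected in 77.8% of the selected cells and 16.7% of the others. Etv1 (chromosome 12, 38779380 to 38870484, plus strand) lay between 558 and 765 CPM with a median of 675, against 41.7 to 62.6 (log2 fold change 3.61, edgeR adjusted p 2.94e-62). Nxph1, whose product neurexophilin 1 binds alpha-neurexins at synapses (chromosome 6, 8948431 to 9249032, plus strand), lay between 221 and 304 CPM against 6.47 to 18.4, a log2 fold change of 4.50. Neither gene overlapped between the groups. Fezf2, the transcription factor that specifies deep-layer projection neurons, was at 271 to 371 CPM against 38.9 to 62.5 (log2 fold change 2.49). Tle4, a Groucho-family corepressor gene used as a corticothalamic marker, had the smallest difference of the 10, at 189 to 344 CPM against 78.2 to 165 (log2 fold change 1.10).

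The receptor, transporter and adaptor genes of the list were found in fewer cells and were low in the other glutamatergic neurons as a whole. These others include the 376 cells left out for an exclusion gene. In those 376 cells Trhr was detected in 30.3%, Slc17a8 in 31.1%, Sla2 in 27.7%, Vwc2l in 50.3% and Htr2c in 22.3%. How much of the level in the others they carry was not tested. Trhr, the receptor for thyrotropin-releasing hormone (chromosome 15, 44196135 to 44235912, plus strand), was at 51.0 to 70.1 CPM against 0.908 to 2.47, a log2 fold change of 5.41 (SE 0.192, edgeR adjusted p 1.08e-39), and was detected in 30.0% of the selected cells and 0.768% of the others. Slc17a8, which encodes the vesicular glutamate transporter VGLUT3 (chromosome 10, 89574020 to 89621253, minus strand), was at 45.4 to 80.7 CPM against 1.24 to 3.65 (log2 fold change 4.72) and was detected in 25.8% and 0.973%. The adaptor gene Sla2 was at 50.7 to 66.2 CPM against 1.08 to 2.24 (5.08), Vwc2l, which encodes a secreted von Willebrand C-domain protein, at 65.1 to 154 against 2.02 to 6.75 (4.67), and Htr2c, the serotonin 2C receptor gene on chromosome X, at 37.2 to 96.5 against 1.87 to 3.77 (4.27). In none of these 5 genes did the groups overlap.

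**Figure D2:**
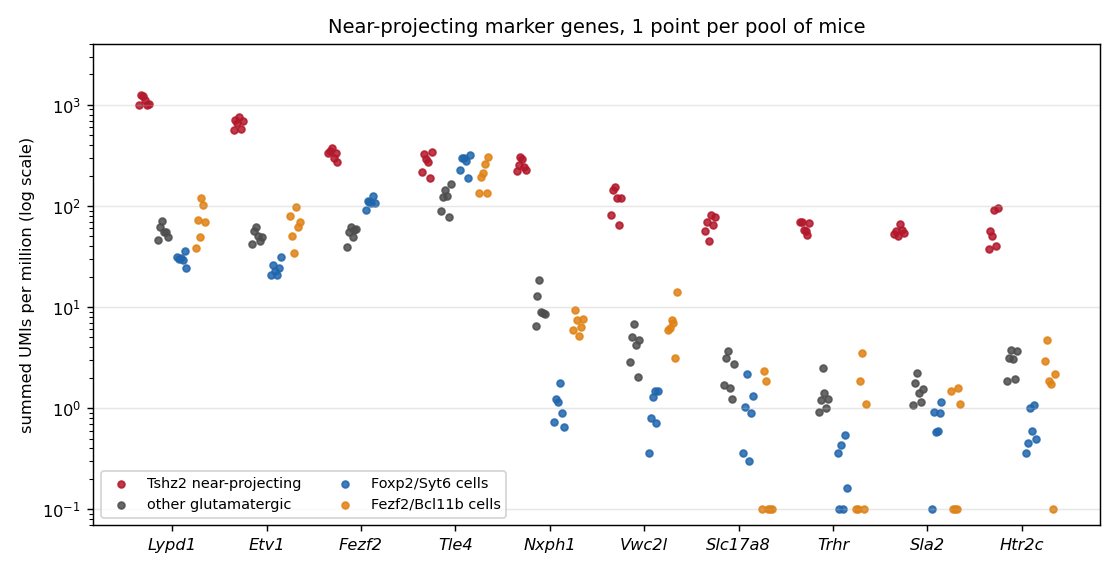
Summed level of 10 near-projecting markers (vertical axis, CPM, log scale), with 1 point for each of the 6 pools in the selected cells, the other glutamatergic neurons, the Foxp2/Syt6 cells and the Fezf2/Bcl11b cells. Points at 0 are drawn at the bottom of the axis, Fezf2 is not shown for the cells chosen by it, and 9 of the 10 markers lie apart from the other glutamatergic neurons by over 4 times in median, Tle4 being the exception.

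The markers were not all detected in the same cells. After thinning 720 of the near-projecting neurons to 3000 UMIs each (98 shallower cells were left out), Slc17a8 and Nxph1 met in 74 cells where the product of their shares gave 45.9, and above that product in 6 of 6 pools. Slc17a8 and Lypd1 met in 54 cells against 76.4, below the product in 5 of 6 pools. Lypd1 was found more often than the product with Vwc2l (173 cells against 145), Trhr (105 against 84.5) and Sla2 (85 against 72.0), in 6 of 6 pools each. Nxph1 and Htr2c met in 28 cells against 42.8, below the product in 6 of 6 pools, and Trhr and Htr2c in 27 against 15.5. Other pairs not listed here lay as far from the product, such as Sla2 and Trhr (23 against 15.7, above it in 4 of 6 pools) and Vwc2l and Trhr (39 against 31.6, 5 of 6 pools), and some lay near it, such as Vwc2l and Slc17a8 (27 against 28.6). These pairs were picked after their values were seen and are given with no test.

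Beyond the marker list, and by the smallest p with the same direction in 6 of 6 pools, the leading genes included Il11ra1, the interleukin 11 receptor (388 to 473 CPM against 35.6 to 48.7, log2 fold change 3.20), Nrsn2, a vesicle membrane protein (213 to 354 against 24.0 to 38.3, 3.13), and Cpne4, a copine (227 to 353 against 32.6 to 39.6, 2.86). Olfm3 (2.60), Neto2, an auxiliary subunit of kainate receptors (2.48), the phospholipase-like gene Plcxd2 (2.36) and Nxph3, another neurexophilin gene (2.27), completed the list. In the other direction, Cck, the neuropeptide cholecystokinin that most cortical glutamatergic neurons carry, was at 114 to 469 CPM with a median of 191, against 2115 to 3074 with a median of 2274. Its log2 fold change was -3.44 (SE 0.0883, edgeR adjusted p 2.71e-49) and the groups were far apart. Other leading lower genes were Igfbp6 (-3.97), Tesc (-3.56), Stk32c (-3.37), the calcium-dependent phosphodiesterase gene Pde1a (-2.94), 3110035E14Rik (-2.91), the tyrosine kinase gene Ptk2b (-2.63) and Itpka (-2.56).

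Markers of intratelencephalic neurons were mostly lower, and those of the other deep-layer classes went both ways, to be read against 16.6% higher and 24.3% lower of all genes. The rule kept cells with Cux2, Otof, Foxp2 or Syt6 out of the selected cells and left them among the others. This by itself lowers genes that accompany these 4, so such calls are no independent support for the class. All 4 tested markers of layer 2/3 intratelencephalic neurons were called lower (median log2 fold change -2.06), among them Calb1 (-3.63) and Lamp5 (-3.09), as were 3 of 4 of layer 4/5 (Rspo1 -4.68, Deptor -1.69, Rorb -1.06) and 4 of 4 of layer 6 intratelencephalic neurons (median -3.17), with Synpr at -3.33 and Nr4a2 at -1.91. The layer 5 extratelencephalic list was divided, with 3 of 6 higher and 2 lower: Bcl11b, a transcription factor of subcerebral neurons, was higher at 247 to 367 CPM against 73.1 to 133 (1.44), with Fezf2 and Crym (0.77), while Pou3f1 (-1.74) and Npr3 (-2.51) were lower. Of the layer 6 corticothalamic list, Tle4 and Crym were higher and Sulf1 lower (-3.88), and Rprm was at 282 to 447 CPM against 286 to 430 (log2 fold change -0.07, edgeR adjusted p 0.430). Of the 5 layer 6b genes, Ctgf (0.79) and Hs3st4 (0.31) were called higher and Cplx3 was at 75.9 to 219 CPM against 85.8 to 147 (0.17, edgeR adjusted p 0.219). Values of Nxph4 and Moxd1, also on this list, are not given here, so no direction is read from the list. Summed over the list, the level was 347 to 723 CPM against 265 to 497, with overlap. Among pan-glutamatergic genes Slc17a6, which encodes VGLUT2, was at 71.3 to 137 CPM against 13.0 to 19.0 (2.66), and Neurod6 was higher by 0.53. Tbr1 (-0.96) and Neurod2 (-0.43) were lower, of which Neurod2 lost its call without the pool block.

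The neighbours in deep layers gave the closer comparison. Against 3198 Foxp2/Syt6 cells (at least 2 UMIs of Foxp2 and Syt6 together, no Tshz2, Cux2 or Otof), 5853 of 12355 genes were called (47.4%), 2866 higher (23.2%) and 2987 lower (24.2%). Of 10 tested near-projecting markers 9 were higher, with a median log2 fold change of 5.85, and Tle4 did not differ beyond its error (189 to 344 CPM against 190 to 317, log2 fold change -0.06, SE 0.0532, edgeR adjusted p 0.363). Nxph1 was at 221 to 304 CPM against 0.654 to 1.79 (7.77), Slc17a6 at 71.3 to 137 against 0.726 to 2.94 (5.60), and Wls, which carries Wnt proteins through the secretory pathway, at 76.7 to 128 against 1.01 to 2.70 (6.08). Plcxd2 (5.50), Prkca (3.27) and Camk2d (3.04) were higher too. Igfbp4 (-5.08), Ighm (-4.79), Trbc2 (-4.36), 3110035E14Rik (-3.91), Pde1a (-3.72), Cryab (-3.67), Crip2 (-2.30), Ttc9b (-1.76) and the corticothalamic marker Rprm (282 to 447 CPM against 947 to 1286, -1.74) were lower. No rule gene entered this test. Foxp2, Syt6 and Tshz2 differ by construction, and this by itself shifts genes that accompany them.

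Against Fezf2/Bcl11b cells (at least 1 UMI of each, no Tshz2 and no exclusion gene), chosen to hold layer 5 extratelencephalic neurons, 3885 of 10702 genes were called (36.3%), 1949 higher (18.2%) and 1936 lower (18.1%). All 9 tested near-projecting markers were higher (median 4.52), Nxph1 at 221 to 304 CPM against 5.23 to 9.40 (5.08) and Lypd1 at 987 to 1260.5 against 38.1 to 120 (3.90). The comparison cells were chosen without Tshz2, which by itself raises the difference in genes that accompany it. Il11ra1 (3.37), Cpne4 (2.95), the synaptic organiser gene Cbln2 (2.94), Vstm2a (2.85), Tmem159 (2.35), the myosin light chain gene Myl4 (2.34) and the chromatin organiser gene Satb1 (1.94) were also higher. Igfbp4 (-4.47), Cryab (-3.72), Pde1a (-3.37), Cck (-3.19), Nr4a2 (-2.90), Ptk2b (-2.36) and Rasgrp1 (-1.96) were lower. The comparison cells were rich in layer 6b genes: Cplx3 reached 484 to 736 CPM in them against 75.9 to 219, 4 of 5 tested layer 6b markers were lower in the selected cells, and 133 of the Fezf2/Bcl11b cells lay in the cluster led by Nxph4 and Cplx3. A further 85 lay in a cluster led by Osr1, Nnat and Npy, and 56 in one led by Il1rapl2, Ptprm and Deptor. The clusters richest in Foxp2/Syt6 cells (1407, 1004 and 435) held 60, 77 and 16 of the Fezf2/Bcl11b cells. Summed layer 5 extratelencephalic markers, Fezf2 and Bcl11b included, were at 478 to 821 CPM in them, against 807 to 946 in the selected cells. Chrna2, a marker of that class, had 0 UMIs in the Fezf2/Bcl11b cells and also in the selected cells, so it does not set these groups apart. How far these cells are layer 5 extratelencephalic neurons was not tested, and the contrast is not read as one with that class.

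Activity-regulated genes were lower in the near-projecting neurons. Of 19 immediate early genes, which neurons switch on within minutes to hours of activity, 13 were called lower and 1 higher against the other glutamatergic neurons (median log2 fold change -0.72, against -0.05 over all genes, of which 24.3% were lower and 16.6% higher). Arc, whose product acts at the synapse (chromosome 15, 74669083 to 74672570, minus strand), was at 57.7 to 103 CPM with a median of 78.3, against 109 to 212 with a median of 155, so that the groups did not overlap (log2 fold change -1.03, SE 0.0766, edgeR adjusted p 1.73e-20). Bdnf, a neurotrophin, was at 19.6 to 37.2 CPM against 158 to 191 (-2.73), and the transcription factor genes Egr3 at 24.2 to 67.8 against 119 to 181 (-1.88) and Egr4 at 35.6 to 63.8 against 124 to 209 (-1.78). Homer1 (-1.17), Egr1 (-1.13), Npas4 (-0.72), Junb (-0.63) and Nr4a1 (-0.58) were lower in 6 of 6 pools, and the ranges of all but Homer1 overlapped between the groups.

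Fos, the gene that drives Cre in these mice, was the exception among the 6 genes named whatever their values. It was at 114 to 203 CPM with a median of 168, against 117 to 213 with a median of 183, lower in 4 of 6 pools (log2 fold change -0.16, SE 0.0722, edgeR adjusted p 0.0712). It was called lower when presumed doublets were removed (-0.23), when cells with glial or vascular markers were left out (-0.23), when 3 UMIs of Tshz2 were asked for (-0.31) and when every cell was thinned to 1000 UMIs (-0.45). After the same thinning Arc differed by -1.05 and Egr1 by -1.17. Against the Foxp2/Syt6 cells 12 of 19 genes were lower and 3 higher (median -0.56, against 24.2% lower and 23.2% higher of all genes), and Fos differed by -0.06 (edgeR adjusted p 0.602). Against the Fezf2/Bcl11b cells 10 were lower and 4 higher (median -0.52, against 18.1% lower and 18.2% higher of all genes), and Fos was higher, at 114 to 203 CPM against 103 to 155 (0.35, edgeR adjusted p 0.0144), which DESeq2 did not call. Of 12 heat shock genes, which tissue dissociation can raise, 4 were higher and 1 lower against the other glutamatergic neurons (median 0.14, against 16.6% higher and 24.3% lower of all genes). The part of dissociation in these levels was not tested.

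**Figure D3:**
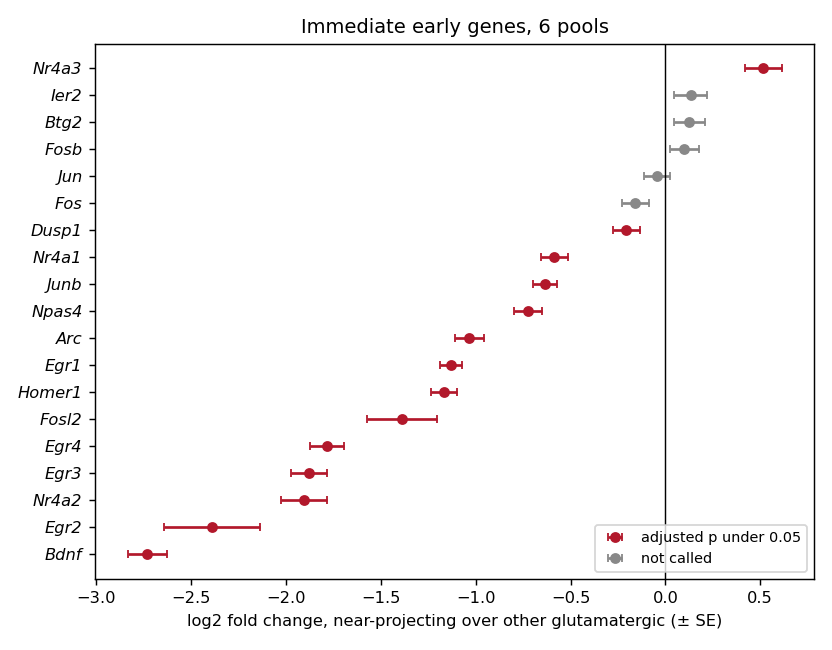
Log2 fold change (horizontal axis, with its standard error) of 19 immediate early genes in the near-projecting neurons over the other glutamatergic neurons, fitted over 6 pools. Red points passed an adjusted p of 0.05: 13 lie below 0 and 1, Nr4a3, above, and Fos is among the 5 grey points.

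Lists of genes of synaptic input and excitability held called genes in both directions, to be read against 16.6% higher and 24.3% lower of all genes (19.9 and 21.0% with RLE factors). Of 21 glutamate receptor genes 8 were higher and 11 lower: the kainate receptor gene Grik1 was at 87.6 to 133 CPM against 2.59 to 5.73 (log2 fold change 4.65, edgeR adjusted p 4.01e-47), Grin3a was higher by 2.27 and Grm5 by 0.75, and the AMPA receptor gene Gria3 was lower (-1.29). Of 14 GABA receptor genes 2 were higher and 9 lower (median -0.62), with the GABA-B receptor gene Gabbr2 at 50.7 to 94.2 CPM against 201 to 315 (-2.13), Gabra2 at -1.89, and with Gabrg3 higher by 1.30. Of 35 neuromodulator receptor genes 13 were higher and 18 lower. The muscarinic receptors went opposite ways: Chrm2 was at 37.0 to 156 CPM against 8.31 to 22.3 (2.65), and Chrm3 at 4.54 to 8.25 against 51.1 to 77.2 (-3.49), with no overlap in either.

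Of 34 potassium channel genes 10 were higher and 18 lower (median -0.27), and the counts here too are to be read against 16.6% higher and 24.3% lower of all genes. The auxiliary subunit gene Kcnip1 was at 67.8 to 92.4 CPM against 1.40 to 4.48 (4.95), the leak channel gene Kcnk2 at 240 to 380 against 80.4 to 112 (1.53), and Kcnab1 and Kcna6 were higher by 1.46 and 1.27. Of 22 sodium and calcium channel genes 6 were higher and 12 lower, with Cacna2d3 (-3.00), Cacng3 (-1.86) and Cacna1e (-1.38) lower. Of 16 neuropeptide genes 5 were higher and 6 lower. Beside the low Cck, the peptide genes Trh, which encodes the ligand of Trhr, and Grp, gastrin-releasing peptide, were higher at 21.1 to 44.2 CPM against 1.80 to 4.36 (2.91) and 104 to 155 against 14.2 to 22.0 (2.69), and Penk was lower (-3.03).

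Structural and regulatory lists also held both directions, against the same 16.6% higher and 24.3% lower of all genes. Of 56 axon guidance and adhesion genes 22 were higher and 26 lower, with the protocadherin gene Pcdh17 at 290 to 429 CPM against 96.9 to 150 (1.52) and the ephrin receptor gene Epha4 at 28.8 to 79.2 against 223 to 331 (-2.38). Of 8 neurofilament and long-axon genes 3 were higher and 5 lower (median -1.10). The neurofilament genes Nefl (59.7 to 134 CPM against 219 to 348, -1.70) and Nefm (35.5 to 59.4 against 73.4 to 163, -1.62) were lower, as was Stmn2 (-0.57). Spp1, also among the 5, had 0 UMIs in the selected cells and passed the count filter only through the others. Of 27 teashirt and cortical transcription factor genes 10 were higher and 16 lower: Tcerg1l (3.52) and Bcl11a (0.73) were higher, and Lhx2 (-3.79) and Id2 (-1.86) lower. The 2 other teashirt genes, singled out after their values were seen, differed in direction. Tshz3 was at 57.2 to 102 CPM against 29.2 to 48.8 (0.91), and Tshz1 at 0.757 to 10.2 against 23.9 to 33.9 (-2.74).

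Markers of other cell types were also present, and their counts are to be read against the same 16.6% higher and 24.3% lower. All 5 endothelial markers were called higher in the selected cells (median log2 fold change 1.46), but unevenly: their summed level was 3.30 to 264 CPM with a median of 145, against 28.0 to 119 with a median of 40.0. It was 6.57 in control 1 and 3.30 in late 2, and 92.4 or more in the other 4 pools, and its part in the results was not tested. The 7 microglial markers and 6 oligodendrocyte markers were all lower (medians -0.98 and -2.92), 4 of 5 astrocyte markers were lower and 1 higher, and of 5 oligodendrocyte precursor markers none was called. Summed microglial markers were at 45.2 to 219 CPM against 99.5 to 562. Of 8 GABAergic markers, Gad1 and Gad2 were at 0 by the rule and Lhx6 had 0 UMIs in the selected cells, but the summed level of the list was higher in them in 6 of 6 pools, at 17.8 to 50.4 CPM with a median of 25.9 against 10.0 to 17.4 with a median of 14.6. Pvalb, the parvalbumin gene of a class of interneurons, was the 1 of 5 tested that was called, higher at 0 to 35.0 CPM against 0.864 to 2.21 (log2 fold change 3.01, 5 of 6 pools), and the part of this list in the results was not tested. With the 75 cells over the 0.1% limit and their like among the others left out, 7035 genes were called in place of 6881.

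The reporter transcript, read through the wpre sequence added to the reference, was found in fewer near-projecting neurons than other glutamatergic neurons. A wpre UMI was found in 6.32, 11.2, 20.2, 7.32, 10.6 and 6.12% of the cells of control 1, control 2, early 1, early 2, late 1 and late 2, against 18.1, 23.0, 29.6, 14.1, 23.9 and 13.7% of the others. In all 6 pools the selected cells were lower, by 10.1 percentage points on average (SD 2.60, n = 6 pools, exact two-sided sign-flip permutation p 0.03125, the smallest that 6 pools allow, and 0.03125 after adjustment over 4 comparisons). They were lower by 10.0 points than the Foxp2/Syt6 cells and by 13.2 than the Fezf2/Bcl11b cells. Against cells with at least 2 UMIs of Cux2 and Otof they were lower by 13.4 points. Each of these differences held in 6 of 6 pools, with no correction for depth. All of these comparison groups were deeper (medians of 9470.5, 9187 and 8862 UMIs in the same order, against 6328). Summed wpre was at 10.7 to 34.1 CPM against 27.8 to 81.6 (log2 fold change -1.50, edgeR adjusted p 6.42e-19). In the selected cells of the main cluster it lay between 11.3 and 15.6 CPM.

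The share has to be read against free RNA and depth. Microglia-like cells, which should lack the reporter, held a wpre UMI in 7.27% of 11055 cells at a median of 1867 UMIs, against 10.0% (82 of 818) of the near-projecting neurons at a median of 6328 and 19.9% of the others at 7321. With every cell thinned to 1000 UMIs, the shares were 1.71% (14 of 818, Wilson 95% interval 1.02 to 2.85), 4.51% in the others and 3.69% in the microglia-like cells. The order of the near-projecting neurons and the microglia-like cells depended on the depth used: with all UMIs the near-projecting neurons were above them in 6 of 6 pools, from 6.32 against 5.79% in control 1 to 20.2 against 10.4% in early 1, and after thinning they were below them in 6 of 6. The others were above the microglia-like cells in 6 of 6 pools both ways. Thinning takes away a larger part of the UMIs of the deeper neurons than of the microglia-like cells, those from free RNA included, so neither order settles whether the share in the near-projecting neurons exceeds background. The Foxp2/Syt6 cells (20.3%) and the Fezf2/Bcl11b cells (22.5%) turned in the same way, to 2.44 and 2.84% after thinning, with the cells of all pools counted as 1 group. At 1000 UMIs the differences of the near-projecting neurons from these 2 groups were -0.803 points (exact sign-flip permutation p 0.0625) and -1.15 points (exact sign-flip permutation p 0.40625), and at 3000 UMIs the near-projecting neurons were above the Foxp2/Syt6 cells in early 1 (10.9 against 4.55%) and late 1 (7.80 against 6.22%). They were below the Fezf2/Bcl11b cells at 3000 UMIs in 6 of 6 pools, at 4.11, 4.24, 10.9, 4.00, 7.80 and 3.37% against 9.38, 6.90, 13.1, 10.3, 10.0 and 6.42% in the pool order above. The difference from the other glutamatergic neurons was -2.92 points at 1000 UMIs (exact sign-flip permutation p 0.03125), and at 3000 UMIs, with shallower cells left out, -4.02 (5 of 6 pools lower, exact sign-flip permutation p 0.0625). Intervals cover counting error only.

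**Figure D4:**
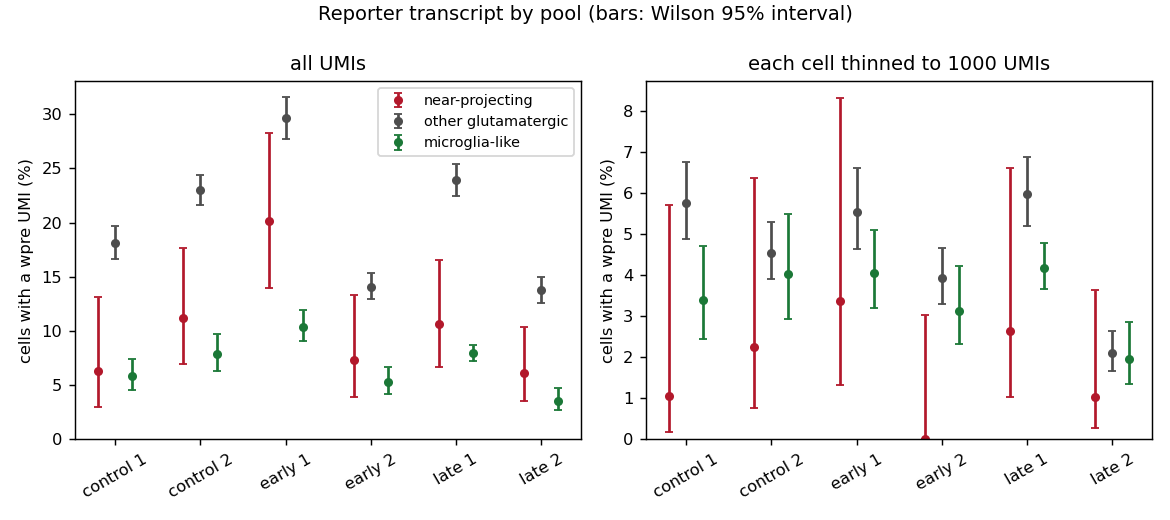
Share of cells with a wpre UMI (vertical axis, percent) in each pool for near-projecting neurons, other glutamatergic neurons and microglia-like cells, with all UMIs (left) and with each cell thinned to 1000 UMIs (right). Bars are Wilson 95% intervals. On the left all 6 near-projecting points lie below the other neurons and above the microglia-like cells, and on the right they lie below both.

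By stage, a wpre UMI was found in 8.75% ± 3.45 of near-projecting neurons of the control pools. It was found in 13.7% ± 9.09 of those of the early pools and 8.36% ± 3.16 of those of the late pools (SD over 2 pools a stage). The early mean rested on 1 library, the contralateral hemisphere of early 1, with 18 of 60 cells (30.0%), against 10.2% in the other hemisphere of that pool and 6.49 and 8.70% in early 2. In that library the other glutamatergic neurons were at 30.1%, so the difference between the classes in early 1 came from its ipsilateral library (10.2 against 29.2%). In these shares 2 pools against 2 cannot reach an exact permutation p below 0.333. In the edgeR fit over 6 pools described below, summed wpre of the near-projecting neurons differed by 0.59 on the log2 scale between early and control (SE 0.515, edgeR adjusted p 0.921), by -0.16 between late and control (SE 0.511, edgeR adjusted p 1.00) and by -0.75 between late and early (SE 0.550, edgeR adjusted p 1.00), with none called. Single cells held much of these sums: 1 cell had 48.3% of the wpre UMIs of control 2, 1 had 46.7% in early 1 and 1 had 42.4% in late 1. In the main cluster wpre was at 11.3 and 12.7 CPM in control, 15.6 and 11.6 in early and 12.0 and 11.7 in late pools.

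The share of near-projecting neurons among glutamatergic neurons gave no callable difference between stages. The shares were 3.84 and 3.69% in the control pools, 5.47 and 3.69% in the early pools and 4.64 and 5.55% in the late pools. Both late pools lay above both controls and the early pools overlapped with them. The late mean of 5.09% ± 0.645 was above the control mean of 3.77% ± 0.105 by 1.33 points (exact permutation p 0.333, the smallest possible), and the early mean of 4.58% ± 1.26 by 0.814 points (exact permutation p 0.667). Within the batch that control 1 and late 1 share, the values were 3.84 and 4.64%, and within the batch of control 2 and early 1 they were 3.69 and 5.47%. These are shares of dissociated and captured cells, and a change in cell number and a change in recovery cannot be told apart. The rule also depends on depth: the 376 cells left out for an exclusion gene had a median of 8772 UMIs, against 6328 in the selected cells. Pool medians of the selected cells ran from 4400 UMIs in control 1 to 12063 in early 1, and no share at matched depth is given here. The early difference turned to -0.0738 points without early 1.

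No gene was called for training stage within the near-projecting neurons. In 1 fit over the 6 pools with stage and barcode class, edgeR called 0 of 10425 genes (0%) for each of 3 contrasts: early over control, late over control, and late over early. Without adjustment 554, 429 and 328 genes had a p under 0.05 in these contrasts, and none was called by DESeq2. Leaving out 1 pool at a time, which leaves a stage with 1 pool assumed to vary like the others, gave 7 to 54, 10 to 72 and 3 to 56 calls. The 3 comparisons share pools and are not independent. Tshz2 was at 2153 and 1512 CPM in control, 1590 and 1429 in early and 1972 and 1574 in late pools, and the 2 pools of the first barcode class, control 1 and late 1, were the highest. Lypd1 was at 999 and 1260.5 in control, 1228 and 1112 in early and 987 and 1011 in late pools, so that both late pools lay below both early pools and the controls overlapped with each (late against early -0.16, SE 0.169). Fos was at 145 and 202 CPM in control, 203 and 179 in early and 114 and 157 in late pools (late against control -0.32, SE 0.183), and Arc at 63.5 and 98.7, 84.1 and 72.6, and 103 and 57.7. In Fos too both late pools lay below both early pools and the controls overlapped with each, and in Arc all stages overlapped. Of 18 immediate early genes tested, 10 were higher in early than control and 14 in late than control (medians 0.06 and 0.12), and of 10 near-projecting markers outside the rule 6 and 4. The share of all 10425 genes that was higher is not given beside these counts, so they are not read as a result.

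None of the genes in this paragraph was called in the stage contrasts above. Some of them rested on few cells and others did not. Cplx3, which encodes a complexin of layer 6b and some interneurons, was at 219 and 210 CPM in control, 83.3 and 75.9 in early and 114 and 137 in late pools (early against control -1.40, SE 0.210, edgeR adjusted p 0.211). Of its 800 UMIs, 80% lay in 49 of the 818 cells. In the cells of the main cluster it was at 153 and 54.9, 77.8 and 63.8, and 52.8 and 36.2, with the control pools far apart. CT010467.1, an rRNA gene (chromosome 17, 39846353 to 39848827), was at 8.76 and 11.9 CPM in control, 56.0 and 181 in early and 11.4 and 327 in late pools (late against control 4.29, edgeR adjusted p 0.269). It was low in both pools of the first barcode class and in control 2, and was found in 320 of the 818 cells. Lars2 was at 6.57 and 38.3 CPM in control, 56.0 and 74.3 in early and 7.92 and 159 in late pools (late against control 1.93, edgeR adjusted p 0.269). It was lowest in control 1 and late 1 and had a UMI in 249 cells. Ubb, a polyubiquitin gene, was found in 751 cells, at 909 and 589 CPM in control and 996 and 1275 in early pools (0.97, edgeR adjusted p 0.482). Acta2, a smooth muscle gene, had 49 UMIs in 4 cells.

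Whether stage effects in the near-projecting neurons differed from those in the other glutamatergic neurons was tested with a cell class by stage term. It called 13 of 16844 genes (0.0772%) for early against control, 3 (0.0178%) with the more positive and 10 (0.0594%) with the more negative change in the near-projecting neurons. It called 22 (0.131%) for late against control, 16 (0.095%) and 6 (0.0356%) in the same order. The split of directions rested on single pools and on the barcode class: for early it was 13 positive and 8 negative without control 2 and 12 and 6 without early 1, and for late it was 18 and 19 without control 1, 18 and 18 without late 1 and 11 and 11 without the barcode class. DESeq2 called 3 and 0, and without control 2 or without late 2 the late count was 5. The leading genes were layer 6b genes (Cplx3 at -1.71 for early and -1.07 for late, Ctgf at -1.14 and -1.26), hemoglobin genes (Hbb-bs at 2.30 and 3.01, Hba-a1 at 2.13 and Hba-a2 at 2.26 for late) and a vascular gene (Col4a1 at 2.85 for early). None of 19 immediate early genes and none of 10 near-projecting markers was called. Without control 2, Ctgf was at 0.73 for early and 0.41 for late. In the near-projecting neurons Ctgf was at 32.9 and 198 CPM in control, 142 and 128 in early and 33.4 and 134 in late pools. It was lowest in control 1 and late 1, the pools of the first barcode class, and was found in 272 of the 818 cells. In the main cluster it was at 17.0 and 81.3 CPM in control and 118 and 133 in early pools. That cluster was formed from these same counts, so its levels are no independent check.

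For some of the genes called by the class by stage term, single cells held much of the counts. Fitted values in this paragraph are differences from the change in the other glutamatergic neurons, and levels are those of the near-projecting neurons unless another class is named. Hbb-bs was at 30.7 and 63.8 CPM in control, 24.2 and 487 in early and 1241 and 294 in late pools, but 1 cell held 95.4% of its UMIs in early 2 and 1 cell 89.1% in late 2, and in the main cluster the 6 pools lay between 24.2 and 58.8. Of the Col4a1 UMIs of early 2, 1 cell held 87.8%. Ptn, a secreted growth factor gene, was at 265 and 297 CPM in control and 125 and 171 in early pools (-1.21), but at 42.5 and 53.8 and 73.5 and 83.1 in the main cluster, in the opposite order. Igfbp5, which encodes an insulin-like growth factor binding protein, was at 56.9 and 57.8 CPM in control and 15.1 and 6.46 in early pools (-2.34), but at 0 and 4.22 and 4.32 and 5.80 in the main cluster. Alcam, a cell adhesion gene, was at 37.2 and 42.5 against 9.84 and 16.1 (-1.72), and at 0 and 2.11 and 2.59 and 0 in the main cluster. Both differences were thus carried by cells outside the main cluster. The clusters were formed from these same counts, with only rule, reporter, mitochondrial and sex-linked genes removed. Cells high in the genes of this paragraph, or in their companions, could be placed outside the main cluster by them, so its levels are no independent check. Neat1, a long noncoding RNA, was at 2.19 and 68.0 CPM in control and 8.80 and 9.07 in late pools (-2.07), but 1 cell held 88.8% of its UMIs in control 2, and the direction turned without control 2 or late 2 (0.85 each) and with 3 Tshz2 UMIs (0.53). Nrip3 was carried more evenly, at 173 and 161 CPM in control and 144 and 115 in early pools (-0.91), while the other glutamatergic neurons went from 47.0 and 55.5 to 97.3 and 61.0, and in the main cluster the near-projecting neurons were at 125 and 148 against 152 and 118 with overlap. With cells over the glial and vascular limit left out, a choice made after seeing the data, the counts were 26 and 11.

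**Figure D5:**
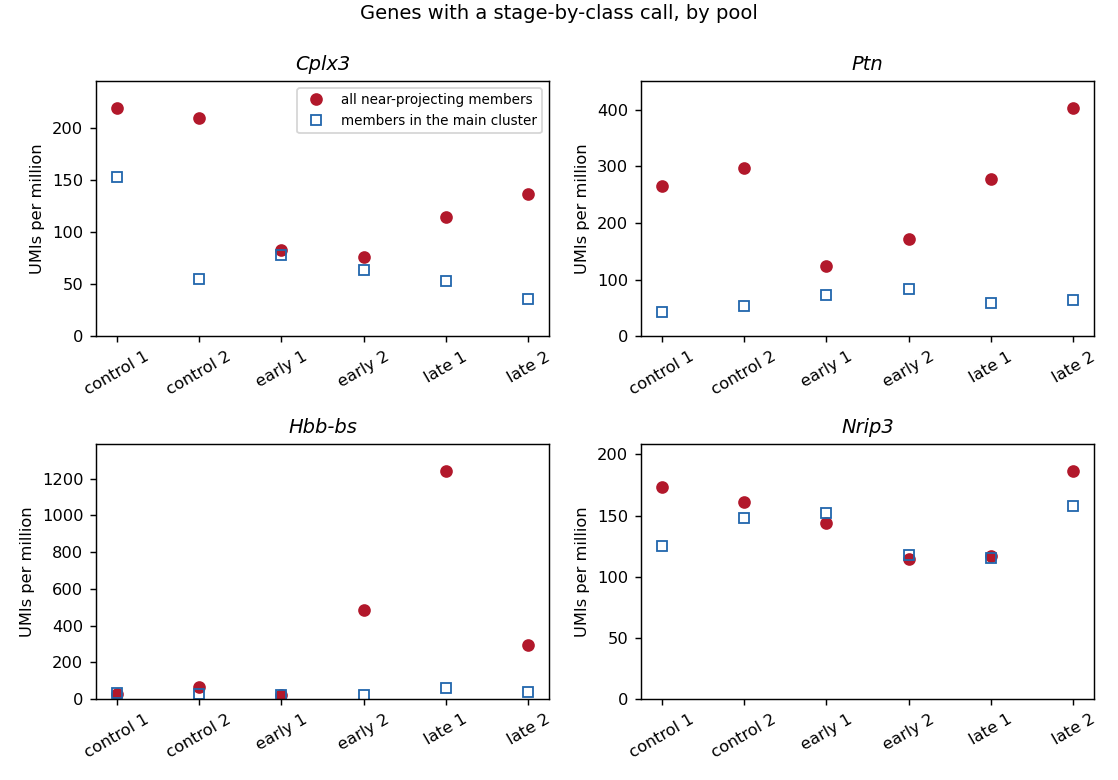
Level of Cplx3, Ptn, Hbb-bs and Nrip3 (vertical axes, CPM) in each pool for all near-projecting neurons (filled circles) and for those in the main cluster (open squares). In Hbb-bs the filled points reach 1241 and the open squares stay between 24.2 and 58.8. The clusters were formed from the same counts without removing these genes.

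The contralateral and ipsilateral cells of each of the 4 trained pools were compared as pairs. Apoe, an apolipoprotein gene high in astrocytes and microglia, was the single call of 8725 genes (0.0115%), higher contralateral to the trained limb by 1.38 (SE 0.231, edgeR adjusted p 0.0258). DESeq2 called 0. The trained pools held 99 Apoe UMIs in 18 cells (early 1), 56 in 9 (early 2), 53 in 34 (late 1) and 80 in 23 (late 2). The call was lost when cells with glial or vascular markers were left out (log2 difference 0.41, edgeR adjusted p 0.999), with 3 Tshz2 UMIs (1.24), without the pool block (1.36), and without early 1, early 2 or late 2 (edgeR adjusted p 0.641, 0.0749 and 0.614). All 5 tested microglial markers were higher on that side with none called (median 0.93, against -0.00 over all genes), as were Olig1 (2.22) and Cd9 (1.67, edgeR adjusted p 0.196 for both). Fos differed by 0.44 (edgeR adjusted p 1.00).

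Over all glutamatergic neurons of a library, Tshz2 was at 46.6 to 150 CPM. The genes whose level followed it most closely over the 12 libraries, of 9455 with a mean of at least 10 CPM, were Rnf182, Rab3b, Nacad, Col12a1 and Prss12 (Spearman correlations of 0.944, 0.916, 0.895, 0.874 and 0.867). Both hemispheres of a pool share mice, and libraries share depth and cell composition, so these are descriptions with no test.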

How the data were processed

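Single-cell 3' RNA libraries (papain dissociation, 10x kit v2 or v3, per the labels) were analysed from the deposited UMI count matrices. Per the submitters' processing notes the authors used Cell Ranger 3.1.0 and GRCm38 (mm10), and the deposited values are whole UMI counts, not normalised. The members, gene lists and comparisons were chosen with earlier results of these data known. UMIs were summed per pool and class, normalised by TMM, filtered with filterByExpr and tested with edgeR 4.0.16 (quasi-likelihood, Benjamini-Hochberg, threshold 0.05) in R 4.3.3. The 8 rule genes were left out of class and class by stage comparisons and kept in stage and hemisphere fits. DESeq2 1.42.0 was an alternative. Class comparisons had the pool as a block, since both classes come from the same mice, and stage fits had stage and a class inferred from barcodes shared between libraries, which coincides with 1 batch label. Cells were clustered with scanpy 1.11.5 (Leiden, resolution 1), and Scrublet scores marked the top 0.8% per 1000 barcodes as presumed doublets, removed in an alternative. Shares were compared by exact sign-flip or permutation tests over pools (scipy 1.17.1). Pools come from separate mice. Scripts were tested on simulated data.

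The text names, in each class comparison, the 12 called genes higher and the 8 lower with the smallest p that lay on the same side in every pool, at most 8 called genes in each other comparison, the layer and near-projecting markers, Fos, Arc, Egr1, Npas4, Junb, Nr4a1 and the reporter, and examples of each other list by smallest p. Alternatives were DESeq2, RLE factors, stricter cell filters, no filter on low counts, doublets removed, 3 Tshz2 UMIs, thinning, each pool left out, no block and no barcode class. Cells with glial or vascular markers were left out in an alternative chosen after seeing the data. A few genes that this rule names are not reported here.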

Additional observations from a re-analysis of the deposited data

Results flagged for a closer look

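Among the 4 early libraries, the share of near-projecting neurons with a wpre UMI was 30.0% in the contralateral hemisphere of early 1, far from the other libraries. Single pools lay far from the other 5 in the difference between near-projecting and other glutamatergic neurons, on the log2(CPM + 1) scale, for 8 of 88 genes examined: Il11ra1 in control 1 (3.66), Cpne4 in late 2 (2.49), 3110035E14Rik in early 1 (-4.24), Pou3f1 in early 2 (-3.40), Nr4a2 in control 1 (-2.73), Grik1 in late 2 (5.13), Gabra2 in control 1 (-2.59) and Grp in early 1 (2.19). Chance marks about 1 in 20 groups in this way.

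The stage effect differed between near-projecting and other glutamatergic neurons, by the class by stage term, in 13 genes for early against control. Those with the smallest p were Hbb-bs (2.30), Cplx3 (-1.71), Ptn (-1.21), Igfbp5 (-2.34), Ctgf (-1.14), Col4a1 (2.85), Nrip3 (-0.91) and Alcam (-1.72), all as log2 differences. In the main cluster Igfbp5 was at 0 and 4.22 CPM in control and 4.32 and 5.80 in early pools, and Alcam at 0 and 2.11 and 2.59 and 0, so these 2 rested on cells outside it. Ptn had the opposite order there, at 42.5 and 53.8 CPM in control and 73.5 and 83.1 in early pools. In early 2, 1 cell held 95.4% of the Hbb-bs UMIs and 1 cell 87.8% of the Col4a1 UMIs, and in late 2, 1 cell held 89.1% of the Hbb-bs UMIs. For late against control there were 22 genes, among them Hbb-bs (3.01), Hba-a1 (2.13), Hba-a2 (2.26), Cplx3 (-1.07), Ctgf (-1.26) and Neat1 (-2.07). Of the Neat1 UMIs of control 2, 1 cell held 88.8%, and its direction turned without that pool (0.85). Acta2 was also called, with a fitted value of 11.19 that is no bound, since it had 0 UMIs in the control near-projecting neurons.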

How the results depend on the processing

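Counts of called genes under other settings were as follows. Against the other glutamatergic neurons, thinning to 1000 UMIs gave 2825 and no replicate block 4184. Against the Foxp2/Syt6 cells these were 1982 and 3177, and against the Fezf2/Bcl11b cells 844 and 2136, with 2369 by DESeq2. For stage, no filter on low counts gave 27 (early over control), 37 (late over control) and 38 (late over early), leaving out cells with glial or vascular markers gave 4, 5 and 5, removing doublets gave 2 and 4 in the last 2, and 3 Tshz2 UMIs gave 4 for late against control. For hemisphere, no filter gave 12, doublets removed 3, glial cells left out 3, and DESeq2, 3 Tshz2 UMIs and no replicate block 0 each. For the class by stage term, DESeq2 gave 3 and 0, glial cells left out 26 and 11, and doublets removed 31 for early. Leaving out 1 pool at a time gave 6087 to 6581, 5132 to 5720 and 3229 to 3740 calls against the 3 classes, 7 to 54, 10 to 72 and 3 to 56 for stage, 0 to 2 for hemisphere, and 13 to 21 and 5 to 37 for the class by stage term. It gave a wpre difference of -10.8 to -9.48 points (exact sign-flip permutation p 0.0625, the smallest that 5 pools allow), against -4.02 at 3000 UMIs. Share differences ranged from -0.0738 to 1.70 (early minus control), 0.870 to 1.78 (late minus control) and -0.375 to 1.40 points (late minus early). Directions turned for Rprm (0.24) when thinned, for Ctgf without control 2 (0.73 early, 0.41 late) and without late 2 (0.41), and for Neat1 with 3 Tshz2 UMIs (0.53), without control 2 (0.85) and without late 2 (0.85). Over all pools left out in turn, Ctgf ranged from -1.50 to 0.73 (early) and from -1.64 to 0.41 (late), and Neat1 from -2.64 to 0.85. The causes were not tested.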
